A study of Mus musculus with 26 samples.

Results

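The average effect of destabilization of the medial meniscus (DMM) on joint gene expression was measured over 4 times after surgery, by setting 11 DMM pools against 12 sham pools, with the week of collection held as a block. The arrays were chosen by surgery and time alone, and these 23 were 23 of the 26 in the series. The focus was on genes that differed on average and lay on the same side of sham at 2, 4, 8 and 16 weeks. These were 1311 of the 11496 genes tested. Counts over gene lists take all called members, also those without the same direction in every week. All mice were male C57BL/6 animals operated on at 12 weeks of age, so the groups were 14, 16, 20 and 28 weeks old at collection. In the DMM group the ligament that tethers the medial meniscus to the tibia was transected, and the sham group was operated on as the control. Each array held RNA pooled from 3 mice, with 3 pools for every surgery and week except the 2-week DMM group, which had 2. The 3 time 0 arrays, from mice that had no operation, were not part of the comparison. The tissue was the whole medial compartment of the knee, with cartilage, subchondral bone, meniscus, capsule and synovium together, so a change in the number of cells of a type and a change in RNA per cell cannot be told apart.

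A meniscus that is no longer held in place shifts load onto a small area of cartilage, and over weeks the joint forms osteophytes, the synovium and capsule thicken and the cartilage erodes. Fibroblasts, tendon cells and synovial lining cells secrete the collagens, proteoglycans and glycoproteins of the joint's soft tissues, and also the proteases that remodel them. The pads of fat inside the capsule and the marrow inside the bone add adipocytes and blood-forming cells to any extract of the whole joint.

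Values were log2 array signals, and a difference is a log2 ratio of DMM to sham. The average effect was tested with limma, which shares information on the spread across probe sets, at an adjusted p under 0.05. It called 2640 of 22425 probe sets (11.8%), 1928 higher (8.6%) and 712 lower (3.18%) in DMM. By gene, taking the brightest probe set of each, 1549 of 11496 were called (13.5%), with 1128 higher (9.81%) and 421 lower (3.66%). Of these, 939 higher genes (8.17% of those tested) and 372 lower genes (3.24%) had the same direction in all 4 weeks. Over all genes tested, called or not, 23.9% had the same direction in all 4 weeks. The median average effect was 0.29 for the 939 higher genes and -0.19 for the 372 lower genes, so the higher genes moved further as well as being more numerous. Every DMM pool lay above the sham mean of its own week for 551 of the higher genes, and below it for 156 of the lower genes. Over all 11496 genes tested, called or not, 780 had every DMM pool on 1 side. The calls were made from these same pools, so part of this agreement is built in. For 162 genes (1.41% of those tested, 156 higher and 6 lower) the DMM and sham pools did not overlap within any week. No gene had all 11 DMM pools beyond all 12 sham pools (0% of genes tested).

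Markers of the joint's tissues were present, though not every marker checked was bright in every pool. Across all 23 pools the log2 signal of Prg4, the lubricin of the synovial lining and cartilage surface, was at least 14.3, that of Acp5, an osteoclast enzyme, at least 12.9, and that of Col2a1, the collagen of cartilage, at least 10.4. The cartilage signal varied between pools. Col2a1 reached 14.2, and Col9a1, another cartilage collagen, ran from 7.94 to 13.03 in sham and from 8.26 to 13.00 in DMM. Skeletal muscle, fat and marrow were present too, with Ckm at 9.66 or more, Adipoq at 10.97 or more and Alas2 at 11.1 or more. For the globin gene Hba-a1, the brightest probe set with 1 symbol was at 6.97 to 7.60, under the mean signal of 7.93 needed for a test. Probe sets with several symbols were not assigned to a gene, so this value need not stand for the globin signal of the pools. Replicate 3 of the 2-week sham pools stood apart, with a mean signal over the muscle list of 8.95 against 9.85 to 11.8 in the other 22. Without it, 1298 genes were called higher and 469 lower.

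**Figure D1:**
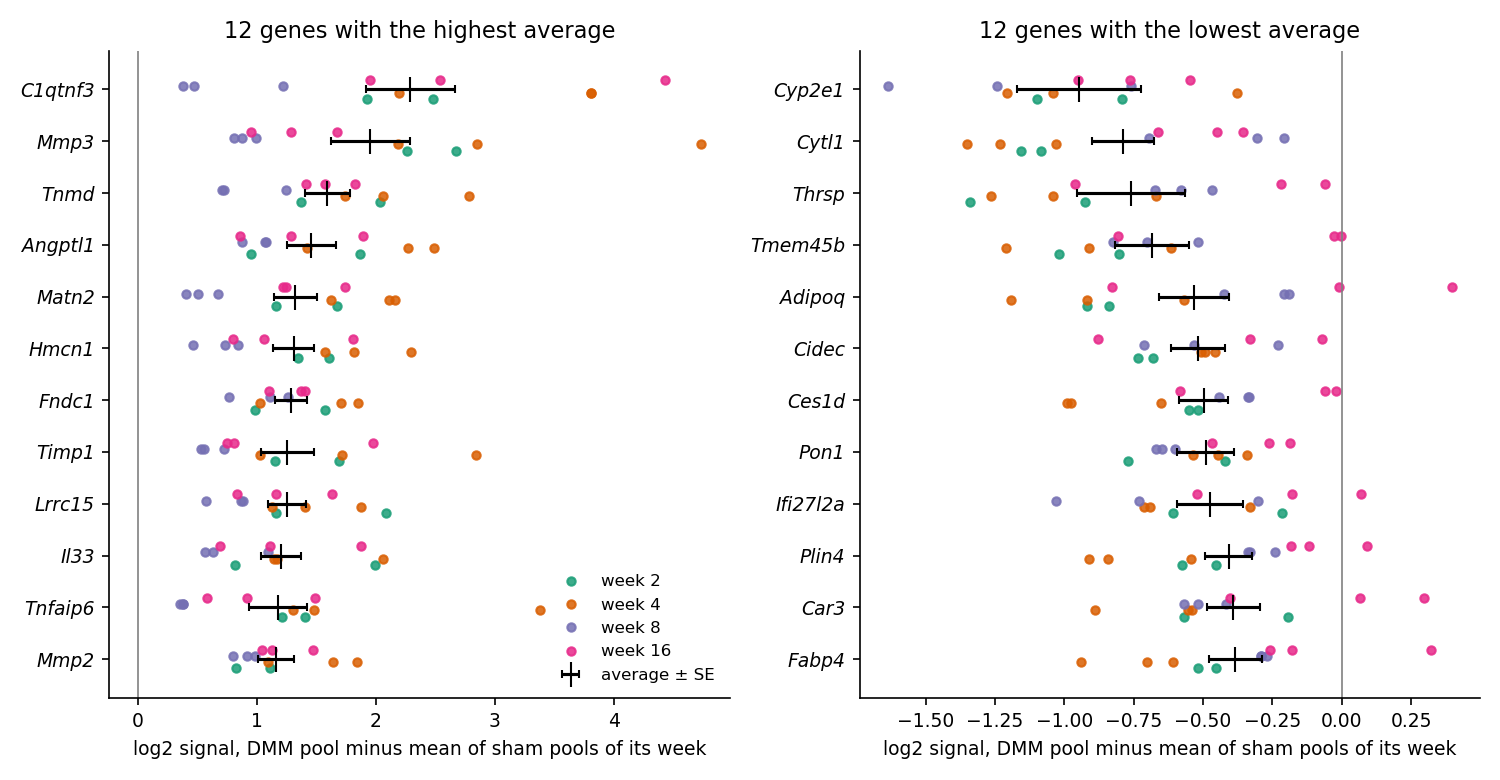
Log2 signal of each DMM pool minus the mean of the sham pools of its week, for the 12 genes with the highest and the 12 with the lowest average among genes with the same direction in every week. Dots are pools coloured by week and black bars give the average ± SE from limma. All 11 pools lie above 0 for each of the 12 higher genes, while single pools of week 16 cross 0 for some of the lower genes.

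Most of the 12 genes that rose most code for secreted or surface proteins of connective tissue. C1qtnf3, a secreted protein of the C1q and TNF-related family, had DMM signals from 6.89 to 12.26 with a median of 9.26 and sham signals from 4.91 to 11.10 with a median of 6.64. The sham median was under the limit of 7.93 for testing, which C1qtnf3 passed on its mean over all 23 arrays, DMM pools included. Its average difference was 2.29 ± 0.37 (SE, adjusted p = 0.000526), made up of 2.20 at 2 weeks, 3.27 at 4, 0.69 at 8 and 2.97 at 16. The pools of the surgeries overlapped at 8 weeks and were apart in the other weeks. Mmp3, or stromelysin 1, a protease that cuts proteoglycans and activates collagenases, ran from 9.70 to 14.57 in DMM (median 10.42) and from 8.47 to 12.01 in sham (median 9.44). Its average was 1.96 ± 0.33 (adjusted p = 0.00065), with 2.47, 3.26, 0.90 and 1.30 in week order, and the pools did not overlap within any week. Timp1, an inhibitor of such proteases, was 1.26 ± 0.22 higher and Mmp2, gelatinase A, 1.16 ± 0.15 higher, so a protease inhibitor and the enzymes rose in the same joints.

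Fndc1, a fibronectin type III domain protein, had nearly the same difference at 2 and 16 weeks. Its DMM signals lay between 10.58 and 12.82 (median 11.10) and its sham signals between 9.28 and 11.73 (median 10.01). The average difference was 1.29 ± 0.13 (adjusted p = 1.48e-05), and the weekly values of 1.28, 1.53, 1.05 and 1.29 gave the largest smallest week of any gene that rose. Angptl1, an angiopoietin-like secreted protein, followed, with 1.46 ± 0.21 on average and at least 1.01 in each week. Only 2 of its 3 probe sets tested had a positive average, and 1 was called. Mmp2 (at least 0.90), Mmp3 (0.90), Tnmd (0.89), Col14a1 (0.88), Lrrc15 (0.78), Il33 (0.76), Dkk3 (0.74) and Nbl1 (0.74) completed the 10 higher genes by their smallest week. A difference of at least 0.5 in the same direction in every week was found for 33 of the 11496 genes (0.287%), 32 higher and 1 lower, and all of the 10 just named were among them.

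The sequence before the start of 6 of these genes is shown for 4 that rose and 2 that fell. C1qtnf3 and Mmp3 had the highest averages, Fndc1 had the largest smallest week, Lrrc15 was the fibroblast marker with the largest average, Cyp2e1 had the lowest average, and Adipoq stands for the adipocyte list. Each run is the 250 bases before the RefSeq start in build GRCm38.p6, 5′ to 3′ on the gene's strand. Capitals mark the AP-1 motif TGACTCA, which reads TGAGTCA on the other strand. They also mark the TATA box letters TATAAA, which read TTTATA on the other strand. The CCAAT box, which reads ATTGG on the other strand, is marked in the same way.
C1qtnf3 (chr15:10952082-10952331, plus strand): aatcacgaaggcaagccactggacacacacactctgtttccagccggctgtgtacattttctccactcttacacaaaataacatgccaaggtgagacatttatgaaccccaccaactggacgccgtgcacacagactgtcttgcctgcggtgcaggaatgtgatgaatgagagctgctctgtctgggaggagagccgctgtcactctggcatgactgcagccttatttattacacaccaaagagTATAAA
Mmp3 (chr9:7445572-7445821, plus strand): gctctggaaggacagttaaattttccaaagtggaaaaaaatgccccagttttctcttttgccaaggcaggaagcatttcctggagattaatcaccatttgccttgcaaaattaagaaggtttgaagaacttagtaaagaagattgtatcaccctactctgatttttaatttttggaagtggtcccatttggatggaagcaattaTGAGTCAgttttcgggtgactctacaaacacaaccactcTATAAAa
Fndc1 (chr17:7827303-7827552, minus strand): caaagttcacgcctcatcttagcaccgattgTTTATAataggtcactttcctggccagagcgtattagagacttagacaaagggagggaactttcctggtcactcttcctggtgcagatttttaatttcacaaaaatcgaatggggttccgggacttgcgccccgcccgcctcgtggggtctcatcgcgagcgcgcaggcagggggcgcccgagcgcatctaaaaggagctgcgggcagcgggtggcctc
Lrrc15 (chr16:30283255-30283504, minus strand): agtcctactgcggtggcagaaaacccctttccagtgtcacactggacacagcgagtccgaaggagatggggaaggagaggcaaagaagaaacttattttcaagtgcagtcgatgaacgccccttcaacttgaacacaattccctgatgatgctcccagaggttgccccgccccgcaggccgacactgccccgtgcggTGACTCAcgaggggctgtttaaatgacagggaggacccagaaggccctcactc
Cyp2e1 (chr7:140763569-140763818, plus strand): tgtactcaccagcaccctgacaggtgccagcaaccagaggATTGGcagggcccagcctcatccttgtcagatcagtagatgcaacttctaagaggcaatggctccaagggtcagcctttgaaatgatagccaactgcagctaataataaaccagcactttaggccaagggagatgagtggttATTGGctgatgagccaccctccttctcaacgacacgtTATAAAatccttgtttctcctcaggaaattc
Adipoq (chr16:23146286-23146535, plus strand): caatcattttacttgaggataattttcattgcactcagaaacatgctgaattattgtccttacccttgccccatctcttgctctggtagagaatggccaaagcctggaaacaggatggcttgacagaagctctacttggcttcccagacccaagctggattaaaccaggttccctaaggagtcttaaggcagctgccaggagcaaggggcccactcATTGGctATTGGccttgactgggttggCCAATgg
The AP-1 letters began 46 bases before the start in Mmp3 (-46) and 53 bases before it in Lrrc15 (-53). They were in 4.46% of all 32851 such windows, in 3.49% of the windows of genes tested, in 3.58% of the 951 windows of the higher genes and in 2.39% of the 377 windows of the lower genes. TATAAA was in 12.4%, 7.08%, 8.10% and 11.1% of these sets in the same order, and CCAAT in 33.8%, 34.5%, 32.2% and 35.8%. A match is a description of the letters and not a site of binding. Entries for Mmp2, Matn2, Col14a1, Dkk3 and Lum were not used here.

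**Figure D2:**
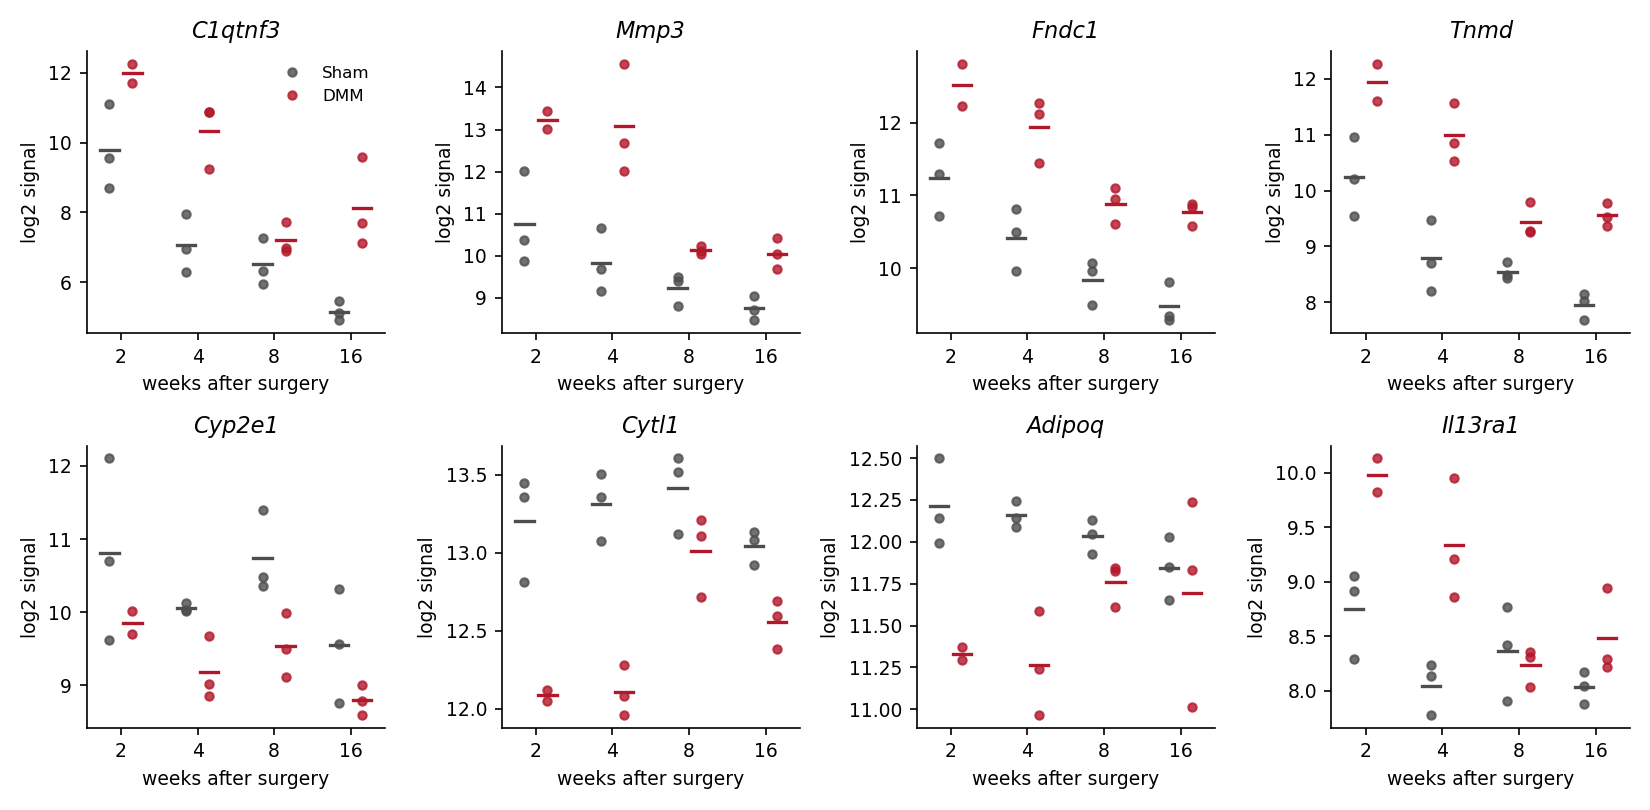
Log2 signal in every pool by week, sham in grey and DMM in red, with a line at each group mean, for 4 higher genes, 3 lower genes and Il13ra1. Fndc1 keeps its gap in each week while the gap of C1qtnf3 shrinks to 0.69 at week 8, and Il13ra1 is higher in DMM at weeks 2, 4 and 16 but -0.13 at week 8.

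The gene lists were drawn up with earlier results of these data known, so their counts describe the members and are not independent support. Over all genes tested 9.81% rose and 3.66% fell, the shares to set beside the counts of every list. List counts take every called member. The same direction in every week was kept by 1311 of the 1549 genes called. It was kept by 16 of 16 called glycoproteins, 14 of 17 collagen processing genes and 13 of 16 fibroblast genes. The counts were 11 of 14 for proteases, 5 of 9 for endothelium and 2 of 5 for secretory genes. They were 1 of 3 for hypertrophic genes and for oxidative phosphorylation, and 0 of 1 for osteoclasts and the proteasome. Of 21 collagens of soft tissue, bone and basement membrane tested, 17 rose and 0 fell, 16 of them in the same direction in every week. Their median difference was 0.63, against -0.02 over all genes tested. Col6a1, a chain of the beaded filament collagen around cells, was 1.10 ± 0.14 higher (1.16, 1.49, 0.51 and 1.25 in week order) and Col14a1, a collagen of fibril surfaces, 1.08 ± 0.14. Col3a1, the collagen of loose connective tissue, was 0.70 ± 0.13 higher and had its largest difference at 16 weeks (1.31) rather than at 4 weeks (0.61). Col1a1, the main collagen of bone and tendon, did not pass the test (0.12 ± 0.06, adjusted p = 0.25). Of 23 genes of collagen folding, cross-linking and processing 17 rose and 0 fell (median 0.39), among them Pcolce, an enhancer of procollagen cleavage, at 0.70 ± 0.13. Serpinh1, the collagen chaperone, was not called (0.39 ± 0.16, adjusted p = 0.11).

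The proteoglycans, microfibrils and glycoproteins moved in the same way. Among 12 small leucine-rich proteoglycans 7 rose and 0 fell (median 0.45). Lum, lumican, ran from 13.10 to 14.60 in DMM (median 13.57) and from 11.61 to 14.03 in sham (median 12.63), an average difference of 1.02 ± 0.12 (adjusted p = 3.68e-05). Fmod, fibromodulin, was 1.01 ± 0.13 higher in 6 of 6 probe sets called, and its brightest probe set was of a kind that can cross-hybridise. Bgn, biglycan, was 0.59 ± 0.10 higher and Dcn, decorin, 0.26 ± 0.06. Of 15 elastic fibre and microfibril genes 9 rose, led by Hmcn1 (1.31 ± 0.17), a giant basement membrane protein, and Mfap5 (0.99 ± 0.17), a microfibril glycoprotein, and 0 fell. Of 27 matricellular and adhesive glycoproteins 16 rose and 0 fell (median 0.40), with Thbs3, a thrombospondin, at 1.06 ± 0.11 (adjusted p = 1.36e-05), Cthrc1, a collagen repeat protein of injured tissue, at 1.06 ± 0.21, and Fn1, fibronectin, at 0.51 ± 0.08.

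Lists of tendon and of activated fibroblast genes rose too, but they share members with the matrix lists, so their counts are not separate from those above. Fmod, Kera, Thbs4, Cilp, Col12a1 and Col14a1 are also in the tendon list. Postn, Fn1, Cthrc1 and Mfap5 are also in the fibroblast list. In the tendon and ligament list 9 of 11 genes rose and 0 fell (median 0.84). Tnmd, tenomodulin, a membrane protein of mature tendon, had DMM signals from 9.26 to 12.27 (median 9.79) and sham signals from 7.68 to 10.96 (median 8.60), an average of 1.59 ± 0.19 (adjusted p = 5.62e-05). In the activated fibroblast list 16 of 20 rose and 0 fell (median 0.51), led by Lrrc15, a surface protein of activated fibroblasts, at 1.25 ± 0.16. Thy1, a fibroblast surface marker, was 0.74 ± 0.11 higher. Of 26 skeletal and mesenchymal transcription factors 13 rose and 0 fell (median 0.25), with Tbx18 at 0.65 ± 0.12, Wwtr1, the TAZ coactivator, at 0.56 ± 0.11 and Foxp1 at 0.36 ± 0.07. Matn2, matrilin 2, a filament-forming adaptor, was 1.32 ± 0.18 higher and belonged to no list.

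Proteases and their inhibitors, 24 in all, had 14 higher and 0 lower (median 0.32). Htra1, a serine protease that degrades matrix, was 1.08 ± 0.13 higher with a smallest week of 0.69. Mmp13, the collagenase of cartilage breakdown, was 0.36 ± 0.11 higher (adjusted p = 0.0335), but its 8-week value was -0.06. Its call was lost when any single one of 8 pools was left out, with adjusted p up to 0.0701. These were the 4-week sham replicates 1, 2 and 3, the 4-week DMM replicates 2 and 3, the 2-week DMM replicate 3, the 16-week sham replicate 2 and the 16-week DMM replicate 1. Mmp9, gelatinase B, was -0.13 ± 0.06 (adjusted p = 0.159) and Adamts5, the main aggrecanase of the mouse, 0.02 ± 0.10 (adjusted p = 0.915), and this was the 1 probe set of 3 with a positive value. The sign of Adamts5 turned with the muscle or marrow means as covariates and without week 4. In the lubrication and synovial lining list 5 of 12 rose and 0 fell, among them Tnfaip6, a hyaluronan-binding protein of inflamed joints, at 1.18 ± 0.24.

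In the TGF beta and BMP pathway 15 of 33 rose and 0 fell (median 0.19), with Nbl1, a secreted BMP antagonist, at 0.86 ± 0.10 (0.76, 1.15, 0.74 and 0.78 in week order) and Fstl1, a follistatin-like protein, at 0.72 ± 0.12. In the Wnt pathway 10 of 25 rose and 2 fell (median 0.12). The members with the largest averages were the secreted modulators Dkk3 (1.12 ± 0.20) and Sfrp2 (1.08 ± 0.14). Sfrp4, of the same family, was 0.64 ± 0.06 higher (adjusted p = 8.82e-06), with 0.71, 0.80, 0.46 and 0.59. Among 29 growth factors, receptors and binding proteins 14 rose and 0 fell (median 0.29). Igf1, insulin-like growth factor 1, was 1.09 ± 0.17 higher in 4 of 4 probe sets called, Pdgfrl, a PDGF receptor-like protein, 0.74 ± 0.12 and Igfbp7, an IGF-binding protein, 0.58 ± 0.08. Grb10, an imprinted adaptor that restrains insulin signalling, was 0.62 ± 0.12 higher, with 5 of 13 imprinted growth genes higher and 1 lower.

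Of the 16 genes of the real-time PCR, 14 were tested, of which 12 rose and 0 fell, with a median of 0.98. The list followed an earlier study that had used RNA of the same 8-week mice, so it is not independent evidence of its direction at 8 weeks. Besides Mmp3, Il33, Dkk3, Igf1, Htra1, Sfrp2 and Col3a1, the members with the same direction in every week were Postn (0.99 ± 0.16), periostin, Aspn (0.97 ± 0.14), asporin, and Ackr3 (0.68 ± 0.11), a scavenging chemokine receptor. Acan, the core protein of aggrecan, was 0.35 ± 0.10 higher (adjusted p = 0.0306) with 0.50, 0.54, -0.04 and 0.44. Its call was lost without any single one of 7 pools, with adjusted p up to 0.0696. These were the 4-week sham replicates 2 and 3, the 16-week sham replicate 1, the 2-week and 4-week DMM replicates 3, the 8-week DMM replicate 2 and the 16-week DMM replicate 1. Col10a1, the collagen of hypertrophic cartilage, was not called (0.17 ± 0.19, adjusted p = 0.621).

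Of 23 chondrocyte genes 2 rose and 1 fell (median 0.09), of 13 osteoblast and osteocyte genes 2 rose and 1 fell, and of 13 osteoclast genes 1 rose. These counts were near the shares over all genes tested, 9.81% higher and 3.66% lower. Comp, the cartilage oligomeric matrix protein, was 0.46 ± 0.08 higher with its largest weekly value at 16 weeks (0.72). The chondrocyte gene that fell, Cytl1, a cytokine-like protein, had DMM signals from 11.96 to 13.21 (median 12.38) and sham signals from 12.81 to 13.61 (median 13.25). Its average was -0.79 ± 0.11 (adjusted p = 0.000193), with -1.12, -1.20, -0.40 and -0.49 in week order, and all 11 DMM pools lay below their sham mean although the pools overlapped at 8 weeks. Of 22 macrophage genes 1 rose and 0 fell, namely Gas6, a ligand of receptors that clear dying cells, at 0.29 ± 0.07. Among 29 chemokines, cytokines and acute phase genes 5 rose and 2 fell. Il33, an alarmin held in the nuclei of stromal cells, was 1.20 ± 0.17 higher with no overlap within any week. Its signal ran from 8.24 to 10.94 in DMM (median 9.24) and from 7.36 to 9.41 in sham (median 7.85). This sham median was under the limit of 7.93 for testing. Il33 passed that limit on its mean over all 23 arrays, DMM pools included. Saa3, an acute phase protein, was not called on average (1.04 ± 0.44, adjusted p = 0.13), with 1.90 and 2.75 at 2 and 4 weeks and -0.15 and -0.18 at 8 and 16.

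The complement list had 5 of 17 higher and 1 lower, including C1ra (0.56 ± 0.11), a protease of the classical pathway, Serping1 (0.50 ± 0.10), its inhibitor, and C1qtnf3, which shares the C1q fold but is no complement factor. The 1 plasma cell gene of 10 that rose was Sdc1 (0.62 ± 0.12), a syndecan also found on fibroblasts and epithelia, and 0 fell. Of 21 interferon response genes 0 rose and 3 fell, 2 of them the immunoproteasome subunits Psmb8 (-0.22 ± 0.06) and Psmb9 (-0.23 ± 0.06). MHC class II (9 genes tested) and B lineage genes (14) had 0 called in limma. Endothelial genes had 9 of 19 higher and 0 lower. The largest was Aplnr, the apelin receptor, at 0.52 ± 0.11. Schwann cell genes had 1 of 7 higher, the myelin protein Pmp22 (0.31 ± 0.07), and 2 lower.

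Of 23 redox genes 8 rose and 2 fell, with Sod3, extracellular superoxide dismutase, at 0.70 ± 0.12 and Mt2, a metallothionein, at 0.60 ± 0.16. Immediate early genes, which also respond to dissection, had 10 of 21 higher and 1 lower, with Fos at 0.63 ± 0.17 and Jund, its partner in the AP-1 factor, at 0.22 ± 0.05. Of 35 endoplasmic reticulum folding and secretory genes 5 rose and 0 fell, among them Kdelr3 (0.49 ± 0.12), a retrieval receptor, and Creb3l2 (0.42 ± 0.09), a regulator of collagen secretion. Clock genes had 2 of 15 higher, Rora (0.50 ± 0.08) and Bhlhe40 (0.46 ± 0.07). Of 35 cell cycle genes 1 rose, Ccnd2 (0.28 ± 0.06), and 6 fell with a median of -0.18. Oxidative phosphorylation had 3 of 33 lower and 0 higher, glycolysis 2 of 26 lower and 0 higher and the proteasome 1 of 27 lower and 0 higher. The clock and secretory counts were a little above the 9.81% of all genes tested that rose. The proteasome count was near the 3.66% that fell. Hypertrophic and mineralisation genes had 3 of 8 higher and 0 lower. Purine synthesis, cholesterol synthesis and cytosolic ribosomal proteins had 0 called in limma of 16, 18 and 22 tested.

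**Figure D3:**
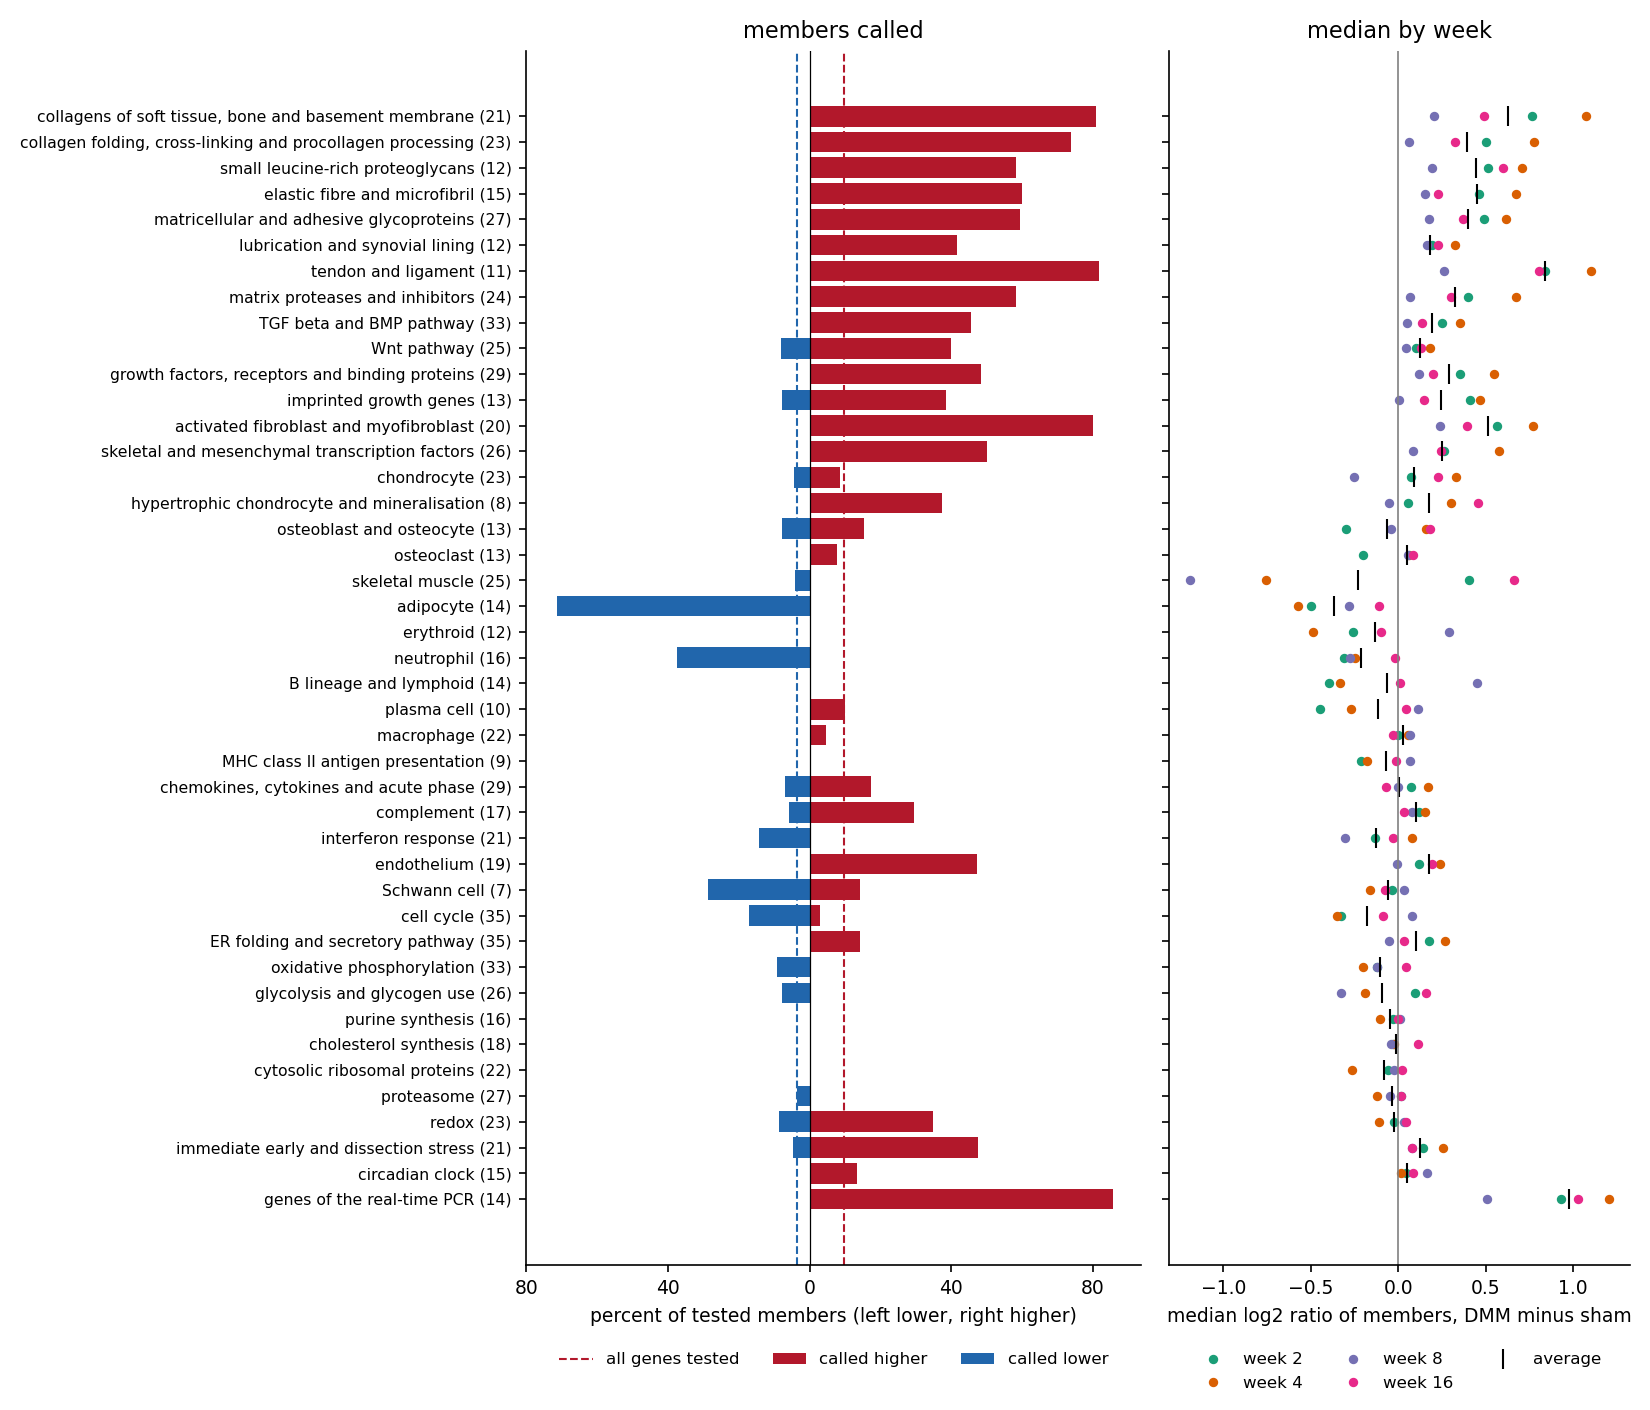
Left, the percent of tested members of each list called higher (red) or lower (blue) in DMM, with the number tested in brackets and dashed lines at the share over all genes tested (9.81% higher, 3.66% lower). Right, the median log2 ratio of each list's members by week, with a bar at the average over weeks. The matrix lists sit to the right in every week and the adipocyte list to the left, while the skeletal muscle list changes side between weeks.

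Genes of fat stood out among those that fell in every week. In the adipocyte list 10 of 14 tested members fell and 0 rose, all 10 in the same direction in every week, with a median of -0.37. Adipoq, adiponectin, ran from 10.97 to 12.24 in DMM (median 11.59) and from 11.65 to 12.50 in sham (median 12.07), an average of -0.53 ± 0.13 (adjusted p = 0.00861), with -0.88, -0.89, -0.27 and -0.15. The difference was thus smaller at 8 and 16 weeks, and the pools of the surgeries overlapped at 16 weeks alone. Thrsp, a regulator of fat synthesis, fell by 0.76 ± 0.19, Cidec, a lipid droplet protein, by 0.52 ± 0.10, Plin4, a droplet coat protein, by 0.41 ± 0.09, Car3, carbonic anhydrase 3 of fat and slow muscle, by 0.39 ± 0.10 and Fabp4, a fatty acid carrier, by 0.38 ± 0.10. Retn, resistin, fell by 0.32 ± 0.07. Outside the list, Mrap, the melanocortin receptor accessory protein of fat and adrenal cells, fell by 0.28 ± 0.06, and its pools did not overlap within any week.

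Also outside that list, Cyp2e1, a cytochrome P450 of liver and fat, had the lowest average. Its DMM signals ran from 8.60 to 10.01 (median 9.11) and its sham signals from 8.76 to 12.10 (median 10.22), an average of -0.95 ± 0.22 (adjusted p = 0.00802). With -0.95, -0.87, -1.21 and -0.75 in week order it was also the 1 lower gene with at least 0.5 in every week, although sham pools of 2 and 16 weeks overlapped the DMM pools. Tmem45b, a membrane protein (-0.68 ± 0.13), Ces1d, a lipid-cleaving carboxylesterase (-0.50 ± 0.09), Pon1, an esterase carried on lipoproteins (-0.49 ± 0.10), and Ifi27l2a, an interferon-induced gene (-0.48 ± 0.12), completed the 12 lowest.

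Means over markers of other tissues are given as values. The adipocyte and neutrophil means were lower in DMM in every week, while the erythroid and muscle means changed side between weeks. The mean signal over the adipocyte list was 9.35 to 9.94 in DMM and 9.72 to 10.25 in sham pools, with differences of -0.50, -0.51, -0.25 and -0.15 in week order. The neutrophil mean was 13.2 to 13.8 in DMM and 13.4 to 14.2 in sham (-0.30, -0.26, -0.25 and -0.02), and 6 of 16 neutrophil genes fell and 0 rose. The erythroid mean was 10.8 to 11.9 in DMM and 10.5 to 12.1 in sham, with differences of -0.28, -0.42, 0.25 and -0.10 and 0 of 12 genes called. The muscle mean differed by 0.19, -0.66, -1.03 and 0.55, with 0 of 25 genes higher and 1 lower. Gapdh 3′ to 5′ differences, a sign of RNA integrity, were 0.24 to 0.56 in DMM and 0.23 to 0.48 in sham pools. DMM minus sham they were 0.047, -0.009, 0.135 and -0.080 in week order, so the gap was largest at 8 weeks.

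The fat and neutrophil means overlapped with the surgery more than the others did. After the week was taken into account, 43.2% of the DMM contrast was left once the adipocyte mean was a covariate, 64.4% with the neutrophil mean and 46.1% with the erythroid and neutrophil means together. It was 96.0% with the muscle mean, 98.2% with the Gapdh difference and 95% with the erythroid mean alone. With the erythroid and neutrophil means in the fit, 30 probe sets were called, all higher. Of the 1311 genes 1276 kept their sign, their median size was 0.467 of that without covariates, and 17 were called. The lists lost most of their calls there. Higher members were 3 for the collagens, 2 each for the leucine-rich proteoglycans and the glycoproteins, and 1 each for the tendon, protease, TGF beta, Wnt, growth factor and real-time PCR lists. Collagen processing, elastic fibre, lubrication, activated fibroblast and transcription factor lists had 0 called in limma, as had every other list, the adipocyte list included. The 17 genes still called in that fit included Sfrp4, Thbs3, Fndc1, Nbl1, Col6a1, Igfbp7 and Matn2, and also Lum (0.91), Htra1 (0.97) and Fmod (1.02). C1qtnf3 (1.81, adjusted p = 0.153), Mmp3 (1.00, adjusted p = 0.506) and Adipoq (-0.17, adjusted p = 0.909) were not called there. With the adipocyte mean in the fit 0 probe sets were called in limma, while 1304 of the 1311 genes kept their sign at a median size of 0.605. With the muscle mean or the Gapdh difference in the fit, 1148 and 1237 of the 1311 were still called with the same sign. The part of fat, marrow or dissection in these results was not tested beyond these values.

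**Figure D4:**
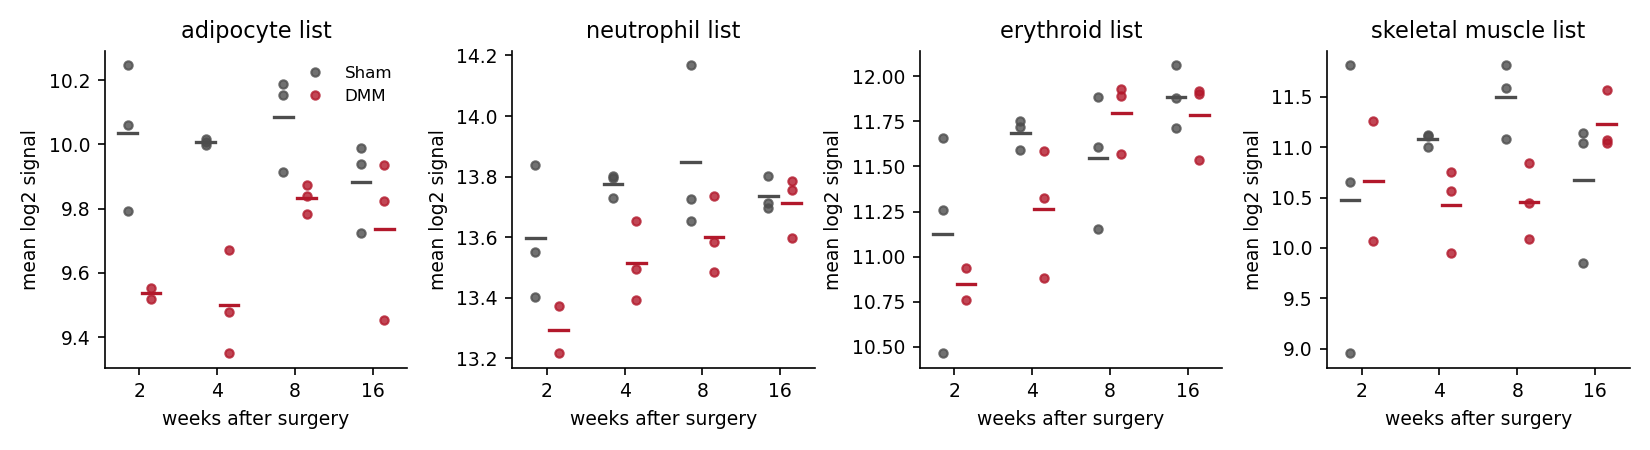
Mean log2 signal over the adipocyte, neutrophil, erythroid and skeletal muscle lists in each pool by week, sham in grey and DMM in red, with a line at each group mean. The adipocyte and neutrophil means are lower in DMM at 2, 4 and 8 weeks, with gaps of 0.15 and 0.02 at 16 weeks.

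Since no pool belongs to more than 1 week, the direction in each week could be read against calls made from the other 3. With week 2 left out, 1319 probe sets were called (5.88%, or 780 genes, 6.78%), and 97.0% of them had the same sign at 2 weeks, against 71.5% of all probe sets tested. With week 4 left out, 402 were called (1.79%, or 239 genes, 2.08%), and 99.8% had the same sign at 4 weeks (68.9% of all tested). Of these 402, 390 were higher and only 12 lower, and 390 and 11 kept their sign, so the share says little about lower probe sets. Over all tested probe sets of each sign 67.4% of the higher and 70.3% of the lower kept it. With week 16 left out, 1902 were called (8.48%, or 1099 genes, 9.56%), and 84.3% had the same sign at 16 weeks (62.6% of all tested). There the higher probe sets kept their sign in 94.4% and the lower ones in 63.9%, against 64.6% and 61.0% of all tested probe sets of that sign.

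The 8-week pools gave lower shares, and RNA of the 8-week mice had also served in an earlier study, whose part was not tested. With week 8 left out, 3982 probe sets were called (17.8%, or 2292 genes, 19.9%), and 57.8% of them had the same sign at 8 weeks, against 44.6% of all tested. Between single 8-week DMM pools that share ran from 49.7% to 63.8%. The median ratio of the left-out difference to the average of the other weeks was 1.17 at 2 weeks, 1.71 at 4, 0.11 at 8 and 0.45 at 16. Among the 939 higher genes the median difference was 0.35 at 2 weeks, 0.46 at 4, 0.13 at 8 and 0.20 at 16, and week 4 was the largest week for 690 genes and week 8 the smallest for 637. Among the 372 lower genes week 2 was the largest for 185 and week 16 the smallest for 232. Week 8 also set much of the membership, since 190 of the 238 genes called without the same direction had their opposite sign at 8 weeks.

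**Figure D5:**
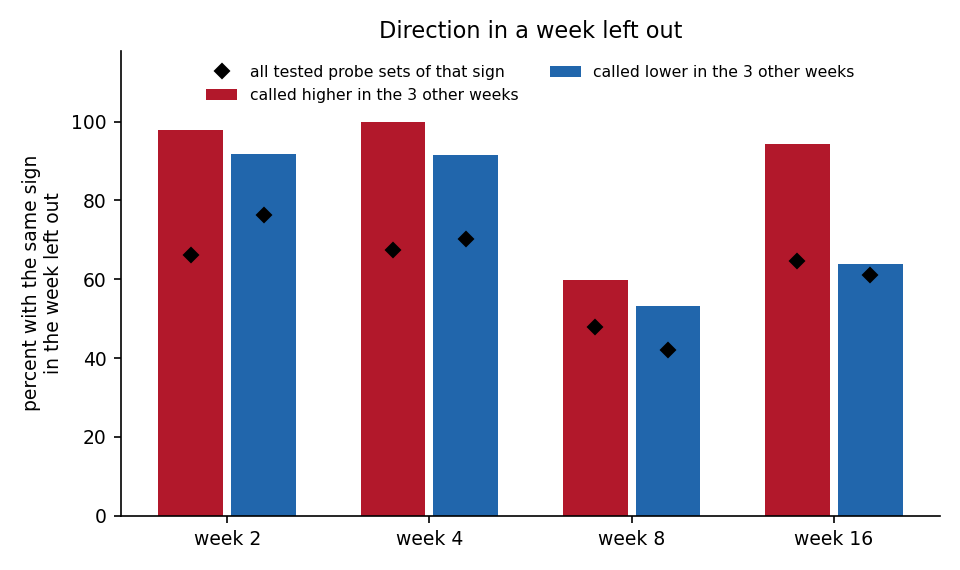
Percent of probe sets with the same sign in the week left out as in the average of the 3 other weeks, for probe sets called higher (red) or lower (blue) there. Diamonds give the same percent over all tested probe sets of that sign. Bars exceed the diamonds by most at weeks 2 and 4 for higher probe sets, and at week 8 the higher bar is 59.8% and the lower 53.3%. The lower bar at week 4 rests on 12 probe sets.

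The genes with the largest averages that were called without the same direction were chosen by that rule and are described here without further test. Kera, keratocan, a proteoglycan of tendon and cornea, was 0.92 ± 0.25 higher on average, with 1.32, 1.81, -0.17 and 0.81. Il13ra1, a receptor chain for interleukin 13, was 0.68 ± 0.18 higher, with 1.22, 1.29, -0.13 and 0.45, and both of its probe sets were called. Spon1, spondin 1, was 0.67 ± 0.16 higher with -0.08 at 8 weeks, and P4ha2, a collagen prolyl hydroxylase subunit, 0.65 ± 0.14 higher with -0.04 at 8 weeks. The values nearest to the rule's border were 0.000147 at 8 weeks in Ube2g2, which was inside, and -8.33e-06 at 16 weeks in Stxbp4, which was outside.

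A change of the DMM effect between weeks was tested with limma's F test on the interaction terms. It called 0 of 22425 probe sets after adjustment (0%) and 3815 at an unadjusted p under 0.05 (17%). Among the 1311 genes 300 had an unadjusted p under 0.05 (22.9%), so the differences in size between weeks described above were not called for any single gene. In data simulated from these arrays with no other change, 96 of 100 probe sets altered by 1.5 at week 4 alone were called. The weekly medians of the higher genes ran only from 0.13 to 0.46. Changes between weeks of that size were not simulated, so the 0 calls do not show that the effect was equal in all weeks.

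Leaving out week 4 reduced the calls most. In that fit 239 of the 1311 genes were called with the same sign, and the counts became 11 higher for the collagens, 3 for collagen processing, 11 for the glycoproteins, 8 for the activated fibroblast list, 6 for the tendon list, 7 for proteases and inhibitors, 0 for endothelium and for immediate early genes, and 1 lower for the adipocyte list. Adjusted p without week 4 was 0.001 for Fndc1, 0.0027 for Lum, 0.011 for Mmp3, 0.025 for C1qtnf3 and 0.21 for Adipoq. When single pools were left out in turn, the counts of higher members ran from 15 to 19 for the collagens, 15 to 19 for the glycoproteins, 13 to 16 for the activated fibroblast list and 8 to 9 for the tendon list, and of lower members from 10 to 11 for the adipocyte list. Counts of the smaller or weaker lists moved by more than 1.5 times. Higher members ran from 4 to 12 for endothelium, 3 to 5 for lubrication, 0 to 4 for hypertrophic genes, 1 to 4 for chondrocytes and 3 to 6 for imprinted genes, and lower members from 2 to 8 for neutrophils, 2 to 7 for the cell cycle, 0 to 6 for oxidative phosphorylation and 0 to 2 for Schwann cells. Immediate early genes had 6 higher without the 4-week sham replicate 2, the 2-week DMM replicate 3 or the 4-week DMM replicate 3, and secretory genes had 10 without the 8-week sham replicate 3. Chemokines had 3 without the 2-week DMM replicate 2 or the 4-week DMM replicate 3.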

How the data were processed

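Gene expression was measured on whole-genome Affymetrix mouse arrays, 1 array per RNA pool. The authors deposited log2 signals, brought to a common scale between arrays by systematic variation normalization; software versions are not given in the sources used here. Array medians ran from 7.90 to 7.95, so no further scaling was applied, and the number of arrays limits the precision. Of 45101 probe sets, 64 controls were left out and 22425 with a mean log2 signal above 7.93 over the 23 arrays were tested. That limit is the median of the array medians and not a detection call, and the deposited detection p-values were not analysed here. Genes were named through the platform annotation (34958 probe sets with 1 symbol, 932 with several, 9211 with none), and a gene was represented by its brightest tested probe set.

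Differences were fitted in limma 3.58.1 (R 4.3.3) as surgery plus week (18 residual degrees of freedom), with Benjamini-Hochberg adjustment over all probe sets tested, and weekly values and the interaction from 8 group means (15 degrees of freedom). On simulated data with these arrays' spread, 94 of 100 probe sets changed by 0.5 and 100 of 100 changed by 1 were called for the average, with 11 false calls among 22225. Noise was drawn separately for each probe set in all simulations, so shifts shared by many genes were not simulated. Genes named are the 12 highest and 12 lowest averages, the 10 in each direction with the largest smallest week, the 2 brightest and 2 most changed members of each of 43 lists, the 16 real-time PCR genes and the 4 largest averages without the same direction. Of the 176 genes these rules give, 85 are printed, and some whose call single pools decided were left out after their values were seen. The members and lists were chosen with earlier results of these data known. Of 1049 list entries 964 had a probe set. Alternatives were filters, scalings, covariates, weights, blocks, weeks and single pools left out.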

Additional observations from a re-analysis of the deposited data

Results flagged for a closer look

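In 46 of the 176 genes that the naming rule gives, and in 6 of the 85 printed here, all DMM pools of some week lay on one side of the sham mean and all DMM pools of another week on the other. The averages of the 6 were 0.68 for Il13ra1, 0.39 for Serpinh1 and 0.12 for Col1a1 (each above sham at 2, 4 and 16 weeks and below it at 8), 0.17 for Col10a1 (above at 4 and 16, below at 8), 1.04 for Saa3 (above at 2 and 4, below at 8 and 16) and -0.13 for Mmp9 (below at 2, 4 and 8, above at 16). The interaction test in limma did not call any of the 6. Its adjusted p was 0.193 for Il13ra1, 0.299 for Serpinh1, 0.522 for Col1a1, 0.419 for Col10a1, 0.237 for Saa3 and 0.301 for Mmp9.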

How the results depend on the processing

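The count of probe sets called, 2640, ran from 1878 (without the 4-week sham replicate 2) to 3238 (without the 8-week sham replicate 2) when single pools were left out. It was 30 with the erythroid and neutrophil means as covariates, 828 with the neutrophil mean alone, 0 with the adipocyte mean alone (the last 2 were chosen after seeing the data), 1319 without week 2, 402 without week 4 and 3982 without week 8. It stayed within 1.5 times under the other filters, scalings, weights, priors and covariates tried. The 939 higher and 372 lower genes with the same direction were 17 and 0 with the erythroid and neutrophil means, 429 and 29 with the neutrophil mean, 0 and 0 with the adipocyte mean, 232 and 7 without week 4 and 1567 and 683 without week 8, and the lower ones were 90 without week 2. Fits without a week hold fewer arrays and need the same sign in 3 weeks only. Over single pools left out the lower genes ran from 232 (without the 2-week DMM replicate 3) to 518, and were 236 without the 4-week DMM replicate 3. The 162 genes with separate pools became up to 283 without the 8-week DMM replicate 3 and 274 without the 8-week sham replicate 2, since fewer pools are then required to be apart. The interaction called 0 in every alternative run. The share with the same sign in the week left out ran from 92.8% to 98.1% for week 2, 98.2% to 100% for week 4 and 50.2% to 65.2% for week 8 over single pools, and was 100% for week 4 with no brightness filter.

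With the erythroid and neutrophil means as covariates the list medians were 0.26 for collagens, 0.16 for collagen processing, 0.28 for leucine-rich proteoglycans, 0.15 for elastic fibre, 0.19 for glycoproteins, 0.30 for tendon, 0.099 for proteases, 0.064 for TGF beta, 0.087 for growth factors, 0.046 for imprinted genes, 0.22 for fibroblasts, 0.12 for transcription factors, 0.60 for the real-time PCR genes, 0.074 for endothelium, 0.023 for secretory genes, 0.024 for immediate early genes, 0.015 for complement, -0.12 for adipocytes, -0.0093 for neutrophils and -0.0066 for oxidative phosphorylation with the sign as before. Signs turned there for chondrocytes (-0.017), osteoblasts (0.023), B lineage (0.039), macrophages (-0.057), chemokines (-0.078), the cell cycle (0.014), purine synthesis (0.0017), cholesterol synthesis (0.051), ribosomal proteins (0.019), the proteasome (0.019) and redox (0.042), for Adamts5 (-0.16) and for Saa3 (-0.13). Without week 4 the medians were 0.44 for collagens, 0.61 for tendon, 0.40 for fibroblasts and 0.15 for transcription factors. Signs turned there for osteoclasts (-0.0090), chondrocytes (-0.027), osteoblasts (0.0011), B lineage (0.044), chemokines (-0.019), cholesterol synthesis (0.014), redox (0.0065) and Adamts5 (-0.11). Without week 8 they were 0.57 for collagen processing, 0.60 for leucine-rich proteoglycans, 0.54 for glycoproteins, 1.04 for tendon, 0.42 for growth factors, 0.35 for transcription factors, 0.20 for Wnt and -0.036 for interferon, and signs turned for glycolysis (0.025), skeletal muscle (0.060) and macrophages (-0.0060). Without week 16 osteoclasts were -0.018 and Col10a1 -0.024. Above a mean signal of 9 the medians were 0.45 for proteases, 0.20 for Wnt and 0.32 for clock genes. With no brightness filter TGF beta was 0.11, and with the mean of all probe sets of a gene immediate early genes were 0.22. Adamts5 was -0.018 with the muscle mean and ran from -0.064 to 0.057 over single pools. Medians of lists outside the matrix, tendon, fibroblast and signalling groups turned sign under some further alternatives too, the chemokine, redox and cholesterol lists most often. The cause of these shifts was not tested.

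Same-numbered DMM and sham pools of a week were not treated as pairs. Pools were drawn at random, and the correlation of their deviations exceeded 0.1 in 6 of 11 pairs (-0.19 to 0.56), with 6 DMM pools correlating best with their own number. At 8 weeks the same-number correlations were 0.48, 0.32 and 0.56, and every DMM pool of that week correlated best with its own number. The reason was not tested. A replicate block over the 11 pairs gave 1864 probe sets.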
